A study of Arabidopsis thaliana with 32 samples.

Results

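Of 27655 genes measured in *Arabidopsis thaliana*, 104 nuclear genes were abundant in roots and nearly absent from shoots. They were selected on the mean level in 3 libraries of root total RNA from plants in normal medium, which was at least 50 TPM (a length-normalised share of all transcripts in the library), and the mean in the matching shoot libraries, which was at most 0.5 TPM. Another 3818 nuclear genes reached 50 TPM in the same root libraries without meeting the shoot limit. The values behind the selection are given below as description and were not tested.

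All plants carried p35s:HF-RPL18, a tagged protein of the large ribosomal subunit under the viral 35S promoter, and were 6 weeks old and grown hydroponically. For the last 1 day they were kept on normal nutrition (CK) or without magnesium (MgD), its sulfate being exchanged for the sodium salt. RNA was sequenced from shoot, labelled rosette leaf, and from root, either as total RNA or as TRAP RNA, the RNA recovered with the tagged ribosomes, giving 8 groups of 3 libraries. The activity of the 35S promoter in each root cell type was not measured here. Nothing in the labels says whether replicates came from separate plants, so p-values measure the spread between libraries, which may be technical.

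A root takes up mineral ions through its epidermis and cortex and then passes them through the endodermis, whose cells are joined by the Casparian strip, a lignin band set up by CASP membrane proteins, and are later coated with suberin. At low supply, nitrate and sulfate enter through high-affinity transporters of the root surface. Root cells also secrete peroxidases, defence proteins and small peptide signals, and make specialised metabolites such as triterpenes and lignans.

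Root and shoot labels were checked against photosynthesis genes: 12 of them summed to between 86130 and 105900 TPM in shoot libraries and to between 520 and 2944 TPM in root libraries. Library totals ranged from 6147531 to 41472378 counts. One library needs care. For root total MgD replicate 3 the deposited counts and the deposited TPM values came from different sets of reads, 6147531 counted against 11737095 recovered from TPM. For 27 of the 104 genes those sets differed more than 2-fold, while 4.88% of the 15765 genes at 5 CPM (counts scaled to library size) or more did so. Tests below use its counts, and results are also given without it.

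The start regions of 6 members are printed here. They are a Casparian strip pair, an uptake transporter pair, and the members with the largest rise and the largest fall in TRAP RNA. Each line is the 100 bases before the annotated start, read on the gene's strand from the RefSeq assembly TAIR10.1, with every TATAAA in capitals. The files name no genome build, but the gene lengths implied by counts and TPM matched the RefSeq TAIR10.1 exon lengths within 0.1% for 99.2% of 15239 genes and for all 93 members that could be measured.
CASP1, chr2:15160800-15160899, minus strand: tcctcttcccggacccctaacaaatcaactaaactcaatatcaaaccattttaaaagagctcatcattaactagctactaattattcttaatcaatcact
CASP2, chr3:3638078-3638177, plus strand: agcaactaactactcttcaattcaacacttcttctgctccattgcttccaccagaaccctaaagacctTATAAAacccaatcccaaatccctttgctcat
NRT2:1, chr1:2523923-2524022, plus strand: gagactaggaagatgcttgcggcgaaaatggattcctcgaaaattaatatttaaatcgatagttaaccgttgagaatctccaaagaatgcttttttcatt
SULTR1;1, chr4:5500213-5500312, plus strand: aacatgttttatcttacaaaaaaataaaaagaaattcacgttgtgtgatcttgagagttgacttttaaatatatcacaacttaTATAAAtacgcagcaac
XTH20, chr5:19481797-19481896, plus strand: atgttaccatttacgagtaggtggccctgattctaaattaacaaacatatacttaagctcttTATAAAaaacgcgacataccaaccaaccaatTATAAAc
PDF2.5, chr5:25485386-25485485, plus strand: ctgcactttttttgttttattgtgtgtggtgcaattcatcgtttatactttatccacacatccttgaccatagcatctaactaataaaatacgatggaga

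In the window from 60 to 21 bases before the start, where a TATA box usually lies, 15 of the 104 members had TATAAA on the gene's strand, which is 14.4%, against 9.95% of the other abundant genes and 9.71% of all 27444 nuclear genes. Over 250 bases and both strands, TATAAA was present in 57.7% of members, 48.6% of the other abundant genes and 47.4% of all genes. TTGACC, one form of the W box that WRKY factors bind, was present in 21.2% of members and 12.1% of the other abundant genes. TTGACT, another form, was present in 31.7% and 19.1%. CACGTG, the G box, was present before 1 member, 0.962%, and before 7.18% of the other abundant genes. These shares are descriptions, and nothing about the factors follows from them.

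RefSeq gives 47 of the 104 members a symbol. The members lie on all chromosomes, 26 each on chromosomes 1 and 4, 18 on chromosome 3, and 17 each on chromosomes 2 and 5. Only 6 of them were in the 11 lists of root and shoot marker genes compiled for this work: NRT2:1 and SULTR1;1 among nutrient uptake genes, CASP1 and CASP2 among Casparian strip genes, FACT among suberin genes and CYP705A1 among triterpene genes. For the account below members were also put into role groups by hand from their RefSeq names, after their identity was known: 4 in nutrient transport, 6 in the endodermal barrier and suberin, 17 among cell wall and secreted proteins, 4 peroxidases, 14 in specialised metabolism, 11 peptides, kinases and calcium-binding proteins, 8 transcription factors, 15 other enzymes and 25 others.

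In root total RNA the 104 members summed to 8302 ± 173 TPM under CK (SD, n = 3) and 8680 ± 532 TPM under MgD, between 0.810% and 0.925% of each library's TPM. The sum was 3283 ± 567 TPM in root TRAP RNA under CK and 3141 ± 567 TPM under MgD. In shoot total RNA it was 31.9 ± 3.39 TPM under CK and 41.8 ± 6.89 TPM under MgD. In shoot TRAP RNA, which the rule did not use, it was 9.84 ± 1.64 TPM under CK and 11.7 ± 2.15 TPM under MgD.

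Levels were also low in shoot libraries that the rule did not use. In shoot TRAP RNA under CK, 53 members were at 0 in all 3 libraries and 100 had a mean of at most 0.5 TPM. Under MgD 46 members were at 0 in every shoot TRAP library, and 98 had a mean of at most 0.5 TPM. Shoot total RNA under MgD kept 79 members at or under 0.5 TPM, and the highest single value was 2.02 TPM, for GLP4. The read file names carry another lane label for the shoot TRAP libraries than for all other libraries, root included, so RNA type and lane cannot be told apart in the shoot values.

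**Figure D1:**
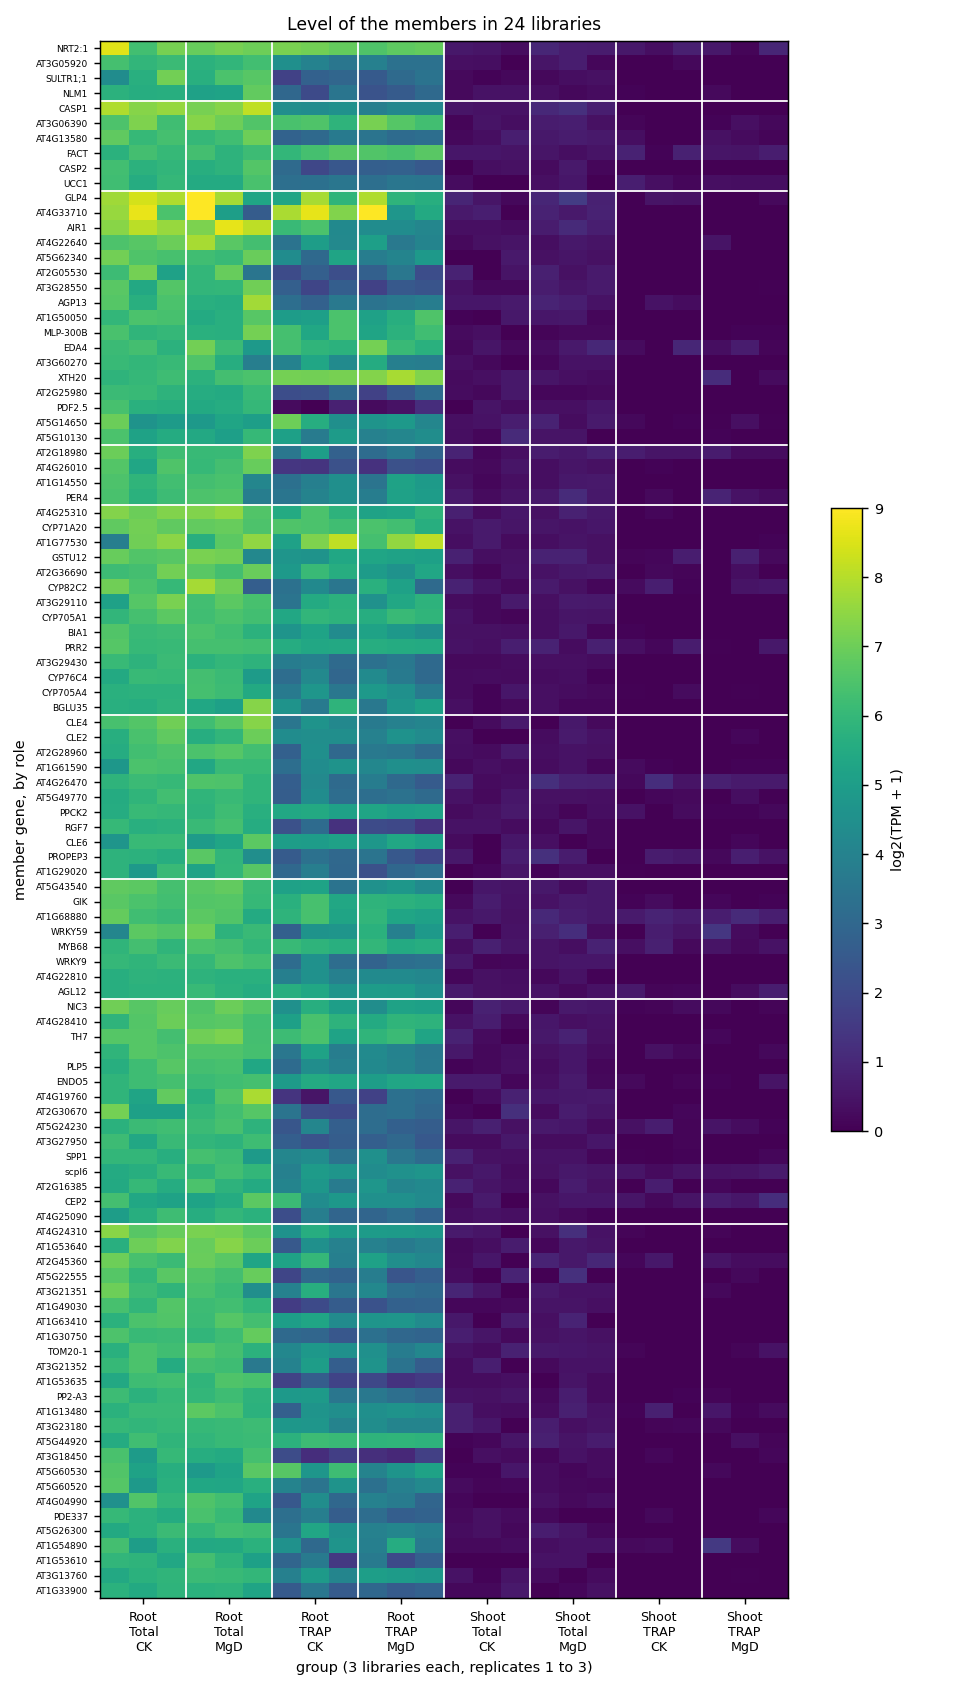
Level of the 104 members, as log2(TPM + 1), in 24 libraries, 3 per group, with the members in rows ordered by role and white lines between roles and groups; 1 row carries no name. The 6 columns of root total RNA are bright for nearly all members, root TRAP columns are darker for most of them, and shoot columns are close to 0.

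Levels within the set lay mostly near the lower limit of 50 TPM, which the rule fixed. In root total RNA under CK, 16 members exceeded 100 TPM and 63 were under 75 TPM, with a median of 68.4 TPM. The genes nearest the root limit were AT1G29020 (50.01 TPM), NLM1 (50.4 TPM) and AT4G25090 (50.9 TPM) inside it, and AT1G65481 (49.7 TPM), GLIP2 (49.5 TPM) and AGL79 (49.4 TPM) outside. At the shoot limit AT5G10130 (0.498 TPM), NIC3 (0.496 TPM) and AT5G24230 (0.492 TPM) were inside, and DGR1 (0.5004 TPM), AT5G40590 (0.503 TPM) and AT3G47980 (0.503 TPM) outside. AT5G40590 had 237 TPM in root total RNA, a level above that of every member except GLP4.

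The highest member was GLP4, a germin-like protein of the wall, with 210, 339 and 244 TPM in the root total CK replicates. AT4G33710, a secreted protein of the CAP (PR-1) family, followed with 194, 413 and 85.5 TPM, and AIR1, a small protein first known as auxin-induced in root cultures, with 166, 270 and 193 TPM. NRT2:1, the main high-affinity nitrate transporter, had 384, 76.7 and 142 TPM, and CASP1 had 244, 163 and 189 TPM. The next were AT4G25310, a 2-oxoglutarate-dependent oxygenase, at a mean of 147 TPM, and the membrane protein AT4G24310 at 129 TPM. The cytochrome P450 CYP71A20 (119 TPM), NIC3, a nicotinamidase of NAD salvage (116 TPM), the uncharacterised AT1G53640 (111 TPM), the CASP-family protein AT3G06390 (106 TPM) and the O-methyltransferase AT1G77530 (105 TPM) completed the leading 12. Replicates of the leading members differed up to several-fold, and AT1G77530 ranged from 13.4 to 171 TPM. Across members the coefficient of variation of root total CK had a median of 24.8%, and 14 members spread more than 3-fold between replicates.

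A member was the direct neighbour of another member for 10 of the 104 genes. The peroxidase genes PER4 (chr1:4974021-4975705) and AT1G14550 (chr1:4978922-4980466) lie side by side. Others were AT1G53635 with AT1G53640, AT3G21351 with AT3G21352, and AT5G60520 with AT5G60530. Another annotated gene overlaps 17 members, among them CASP1, AIR1, GLP4, WRKY9 and AT4G26010, each with a partner on the opposite strand. The sources used here do not state whether strand was used in counting, so reads of such pairs may not be separable. BGLU35 shares 96.1% of 1742 transcript bases with BGLU34, so its level is uncertain.

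TRAP RNA was compared with total RNA in root to ask how far the transcripts of these genes were recovered with tagged ribosomes. The comparison under MgD is the test, because the libraries it compares were not used in the selection. The model also held the root total CK libraries that chose the members, which enter its scaling and its estimate of spread. Of the 104 members, 73 were lower in TRAP RNA and 2 were higher (edgeR quasi-likelihood test on TMM-scaled counts, Benjamini-Hochberg adjusted p below 0.05 over 20311 genes). Over all genes tested, 28% were called lower and 24.5% higher. The median log2 difference of the members was -1.65, a 3.13-fold lower level, and it was -0.06 over all genes. Among members called lower, 69 were at least 2-fold and 42 at least 4-fold lower. Over all 20311 genes tested, 3931 were called at least 2-fold lower and 1917 at least 4-fold lower. Of the other 3818 abundant root genes, 781 were lower, 20.5%, and 1537 were higher, 40.3%, with a median of 0.27. Of these abundant genes 424 were called at least 2-fold lower and 131 at least 4-fold lower.

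**Figure D2:**
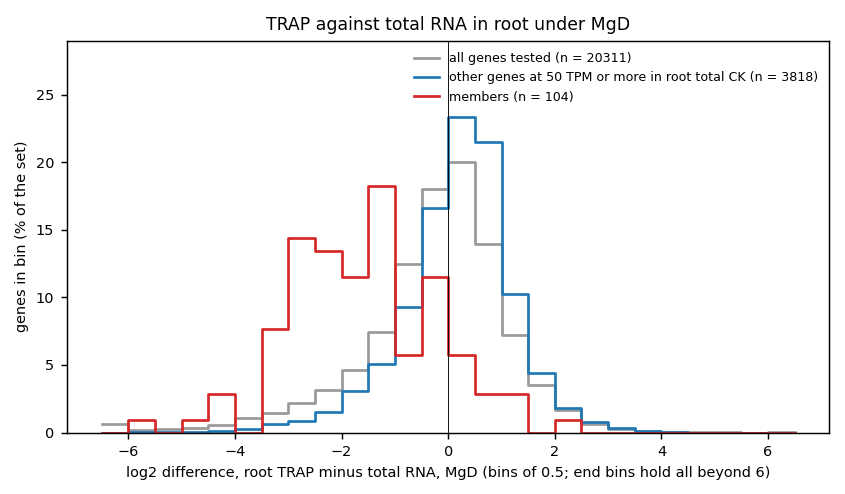
Distribution of the log2 difference between root TRAP and total RNA under MgD for the 104 members, the 3818 other abundant root genes and all 20311 genes tested, as the percentage of each set per bin of 0.5. Most members lie below 0, with a median of -1.65, and the other abundant genes peak just above 0.

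A fit was also made on the deposited TPM values, with limma on log2(TPM + 1). It differed from the edgeR fit in its scaling, its set of 19748 genes tested, its test and its reads for root total MgD replicate 3. The TMM factors of the edgeR fit were 1.173 to 1.264 in root total MgD libraries. In root TRAP MgD libraries they were 0.815 to 0.846, and the TPM values carry no such factor. All CPM values and edgeR differences given here depend on these factors. The scaling, the gene set and the test were not separated from each other, while the reads were also exchanged alone in the edgeR fit. The part of the scaling in the values below was not tested. In the TPM fit the median over all genes moved to -0.50, and 9344 genes were lower and 2151 higher, which is 47.3% and 10.9%. In the same fit 78 members were lower, 1 was higher and their median was -1.91. With the reads recovered from TPM for root total MgD replicate 3, the edgeR fit gave 66 members lower and 3 higher, against 27.3% and 23.8% of genes. Its median over all genes was then -0.08. Without that library 70 members were lower and 2 higher, against 24.3% and 21.1% of genes. With only the groups compared in the model, 75 members were lower and 3 higher, against 30.5% and 28.3% of genes. Under CK, where the total RNA libraries had chosen the members, the median difference was -1.41, given as a description. The sign under CK and MgD was the same for 96 of 104 members, and Pearson's r across them was 0.92 (Spearman's rho 0.916). No library is shared by these differences, while the genes share their length and sequence in both.

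These are bulk samples, in which fewer cells of a type and less RNA per cell cannot be told apart. Marker lists of root cell types, set beside the members, did not all move one way in TRAP RNA under MgD. Of 14 root hair genes tested, 13 were lower and 0 higher, with a median log2 difference of -4.67. All 7 Casparian strip genes tested, CASP1 and CASP2 among them, were lower, with a median of -2.62. All 5 xylem genes (median 1.33) and all 4 phloem genes (median 1.92) were higher. Of 4 root cap genes 1 was lower and 0 higher, with a median of 0.10, and of 2 cortex genes 1 was higher and 1 lower. Of 12 suberin genes 2 were higher and 1 lower, and of 25 nutrient uptake genes 4 were higher and 8 lower. Of 12 photosynthesis genes 9 were higher and 1 lower. Of 16 genes listed for endoplasmic reticulum bodies 7 were higher and 3 lower, with a median of 0.58. In root total RNA under CK 14 of these 16 had at least 50 TPM, and 0 were members. Of 9 triterpene genes tested 0 were higher and 3 lower, with a median of -0.41. The part of these lists in the result for the 104 members was not tested.

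Of the 4 members put in the nutrient transport group, 3 were lower in TRAP RNA and NRT2:1 did not pass. SULTR1;1, a high-affinity sulfate transporter of the root surface, had 64.2, 110 and 157 TMM-scaled CPM in total RNA under MgD and 9.13, 13.4 and 17.9 CPM in TRAP RNA, without overlap. Its log2 difference was -3.03 ± 0.62 (SE), 8.15-fold lower, with an edgeR adjusted p of 0.00167. NRT2:1 had 139, 157 and 95.8 CPM in total and 150, 169 and 189 CPM in TRAP RNA, which overlap, but in TPM every TRAP library was below every total library. The difference of NRT2:1, 0.38 ± 0.48, did not pass (edgeR adjusted p 0.531), and on log2(TPM + 1) it was -0.31. NLM1, an aquaglyceroporin, was lower by -2.11 ± 0.36, and AT3G05920, a heavy-metal-associated domain protein, by -2.05 ± 0.30.

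Casparian strip genes were lower and a suberin gene was higher. CASP1 had 70.6, 79.4 and 65.4 CPM in total and 9.96, 11.5 and 11.8 CPM in TRAP RNA under MgD, a difference of -2.70 ± 0.20 (edgeR adjusted p 1.62e-06). CASP2 had 26.9, 29.1 and 20.6 CPM in total and 4.46, 4.39 and 3.61 CPM in TRAP RNA, a difference of -2.62 ± 0.33. In both genes every TRAP library was below every total library. UCC1, an uclacyanin of Casparian strip lignin, differed by -1.68 ± 0.21, and AT4G13580, a dirigent-like protein of the family that guides lignin deposition, by -2.48 ± 0.28. FACT, the fatty alcohol caffeoyl transferase of suberin-associated waxes, had 71.0, 49.6 and 51.0 CPM in total and 122, 105 and 134 CPM in TRAP RNA. Its groups did not overlap, and it was higher by 1.07 ± 0.19 (edgeR adjusted p 0.000565), but on log2(TPM + 1) the difference was 0.47 and did not pass (limma adjusted p 0.067). AT3G06390, named for the same protein family as CASP1, differed by 0.32 ± 0.34 and did not pass, with -0.27 on log2(TPM + 1).

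**Figure D3:**
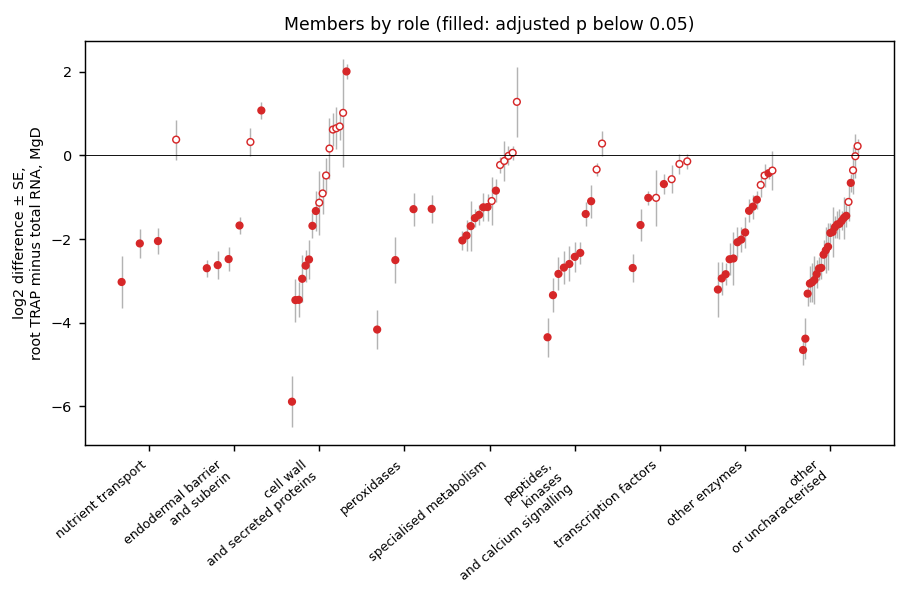
Log2 difference between root TRAP and total RNA under MgD for each member, with SE bars from the model of 12 root libraries, by role group. Filled points passed the edgeR test, 73 below 0 and 2 above, and the 4 peroxidases are all filled and below 0.

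Among 17 cell wall and secreted proteins 8 were lower, 1 was higher and 8 did not pass, the widest range of any role group. PDF2.5, a defensin, showed the largest fall of all members. It had 16.2, 17.3 and 21.9 CPM in total RNA and 0.104, 0.175 and 0.677 CPM in TRAP RNA under MgD. The difference was -5.89 ± 0.61, and the TRAP values rest on 2, 4 and 12 counts. XTH20, a xyloglucan endotransglucosylase/hydrolase that remodels the wall, showed the largest rise. It had 41.5, 58.7 and 45.3 CPM in total and 177, 237 and 170 CPM in TRAP RNA, a 4.01-fold higher level (2.0 ± 0.17, edgeR adjusted p 4.11e-06), and was also higher on log2(TPM + 1), by 1.31. The mannose-binding lectin AT2G25980 differed by -2.64 ± 0.38, AGP13 by -1.68 ± 0.30, and AT5G62340, a pectin methylesterase inhibitor-type protein, by -1.33 ± 0.48. The call of AT5G62340 was lost without any 1 of the MgD libraries except TRAP MgD replicate 3, or without TRAP CK replicate 1 (edgeR adjusted p 0.0525 to 0.111). It was also lost without the filter on low counts (edgeR adjusted p 0.0527). AIR1 fell by 3.46 ± 0.51 on the log2 scale and the extensin-like AT3G28550 by 3.45 ± 0.42. AT4G22640, a lipid-transfer-type protein, differed by -2.49 ± 0.46 and the glycine-rich AT2G05530 by -2.95 ± 0.56.

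In root total RNA under MgD the coefficient of variation of TPM was highest for AT4G33710 (157.3%) and GLP4 (106.5%), which are in the same role group. BGLU35 (91.8%) and CYP82C2 (90.6%), of another role group, exceeded EDA4 (70.5%). GLP4 had 425, 131 and 109 CPM in total RNA under MgD and 214, 47.0 and 42.7 CPM in TRAP RNA. AT4G33710 had 237, 13 and 20.1 CPM in total and 508, 14.5 and 25.8 CPM in TRAP RNA. For both, replicate 1 stood far above replicates 2 and 3 in total and in TRAP RNA, the groups overlapped, and neither passed (edgeR adjusted p 0.233 and 0.527). Without TRAP MgD replicate 1, GLP4 was called lower (-2.31, edgeR adjusted p 0.0289), and the difference of AT4G33710 turned to -2.17 without a call. EDA4, a lipid-transfer-type protein, had 69.3, 34.4 and 13.4 CPM in total and 102, 46.8 and 36.7 CPM in TRAP RNA and did not pass either, but was called higher without total MgD replicate 1 (1.35, edgeR adjusted p 0.04).

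**Figure D4:**
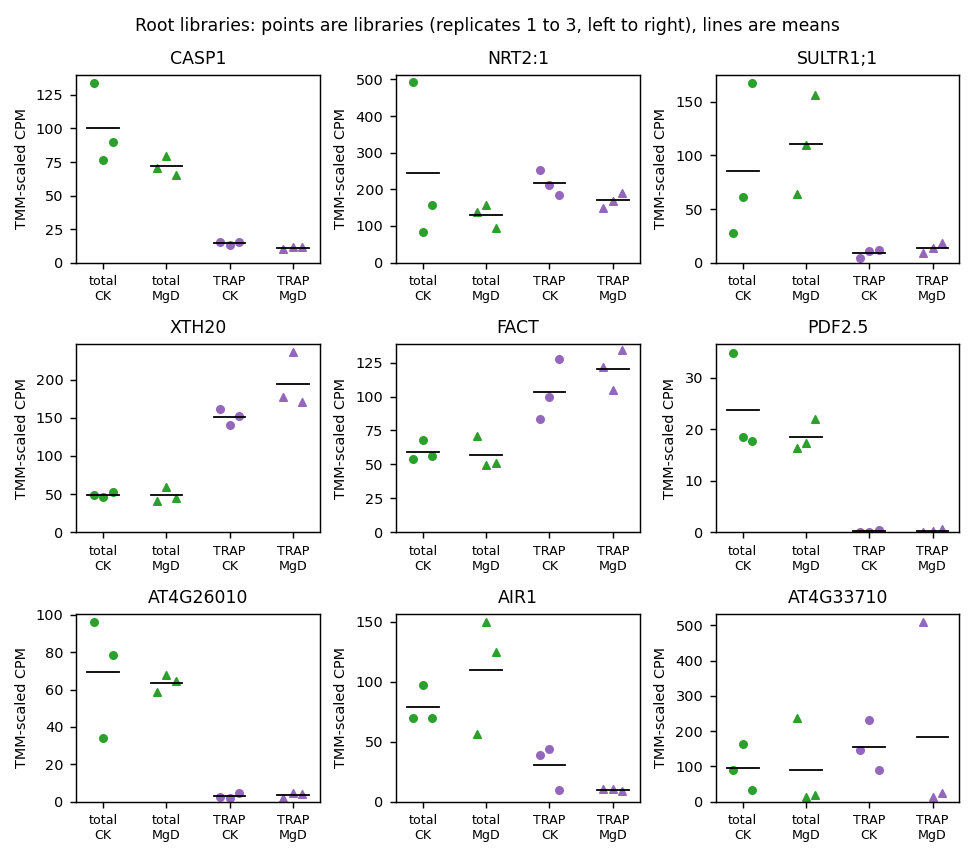
TMM-scaled CPM of 9 members in the 12 root libraries, with points for replicates 1 to 3 from left to right (circles CK, triangles MgD) and lines for group means. CASP1, SULTR1;1, PDF2.5, AT4G26010 and AIR1 are low in TRAP RNA, XTH20 and FACT are higher there, NRT2:1 overlaps, and AT4G33710 under MgD is high in replicate 1 only.

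All 4 peroxidases, secreted enzymes that cross-link wall polymers, were lower in TRAP RNA. AT4G26010 had 58.5, 67.9 and 64.6 CPM in total and 1.87, 4.47 and 4.29 CPM in TRAP RNA under MgD, a 17.9-fold lower level (-4.16 ± 0.46, edgeR adjusted p 2.59e-05). AT2G18980 differed by -2.50 ± 0.55. The neighbouring pair PER4 and AT1G14550 had nearly the same difference, -1.28 ± 0.33 and -1.29 ± 0.40, and neither was called on log2(TPM + 1) or with the recovered reads. Their TPM values in root total MgD replicate 3, 13 and 16.4, lie below those of the other MgD replicates, 78.6 to 93.3, whereas their CPM there were 57.9 and 61.3, close to the others.

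In specialised metabolism 8 of 14 members were lower, 0 higher and 6 did not pass. CYP71A20 had 125, 126 and 79.4 CPM in total and 137, 115 and 75.7 CPM in TRAP RNA under MgD, a difference of -0.01 ± 0.22 that on log2(TPM + 1) was called lower. CYP705A1, which cleaves the triterpene arabidiol, had 0.06 ± 0.17 with libraries that overlap in CPM, and -0.46 on log2(TPM + 1), neither called. In TPM its TRAP libraries were all below its total libraries. PRR2, a pinoresinol reductase of lignan synthesis, had -0.23 ± 0.20. The terpenoid synthase AT3G29430 (-2.03 ± 0.23), CYP76C4 (-1.92 ± 0.37), the oxygenase AT4G25310 (-1.42 ± 0.24), the glutathione transferase GSTU12 (-1.50 ± 0.21, not called on log2(TPM + 1) or with the recovered reads) and the acyltransferase BIA1 (-0.84 ± 0.27), a brassinosteroid-inactivating enzyme, were lower. CYP82C2, a hydroxylase of an indole defence compound, was lower by -1.69 ± 0.60 (edgeR adjusted p 0.0336). It was not called without the filter on low counts (edgeR adjusted p 0.0589) or with only the groups compared (edgeR adjusted p 0.134). Nor was it called on log2(TPM + 1) or with the recovered reads. Its call was also lost without total MgD replicate 1 or 2, TRAP CK replicate 1, or TRAP MgD replicate 2 or 3, with adjusted p from 0.0526 to 0.136. The methyltransferase AT1G77530 had 42.8, 89.9 and 140 CPM in total and 100, 218 and 341 CPM in TRAP RNA. The groups overlapped and it did not pass (1.28 ± 0.84, edgeR adjusted p 0.218).

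Of 11 peptide, kinase and calcium-binding members 9 were lower and 2 did not pass. RGF7, a precursor of the root meristem growth factor peptides, had 27.4, 31.3 and 30.6 CPM in total and 1.87, 1.58 and 0.903 CPM in TRAP RNA, a 20.3-fold lower level (-4.35 ± 0.46). PROPEP3, the precursor of a danger-signal peptide, differed by -3.34 ± 0.40. Among precursors of CLE peptides, which signal through receptor kinases, CLE4 (-2.33 ± 0.27) and CLE2 (-1.40 ± 0.30) were lower. CLE6, with 11.6, 14.3 and 19.3 CPM in total and 14.6, 21.3 and 18.4 CPM in TRAP RNA, differed by 0.28 ± 0.29 and did not pass. The EF-hand calcium-binding protein AT4G26470 differed by -2.83 ± 0.39. The protein kinase AT1G61590 differed by -1.10 ± 0.40, a call lost without total MgD replicate 2 or 3 or any 1 TRAP MgD library (edgeR adjusted p 0.0703 to 0.104). That call was also lost without the filter on low counts (edgeR adjusted p 0.05005). The receptor-like kinases AT2G28960 (-2.68 ± 0.40) and AT5G49770 (-2.43 ± 0.35) were lower, and PPCK2, the kinase of phosphoenolpyruvate carboxylase, did not pass (-0.34 ± 0.15).

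Of 8 transcription factors 4 were lower, 0 higher and 4 did not pass. WRKY9 had 45.9, 62.9 and 48.4 CPM in total and 6.64, 8.33 and 9.37 CPM in TRAP RNA (-2.69 ± 0.33). The zinc finger protein AT5G43540 (-1.67 ± 0.38), the AT-hook protein AT4G22810 (-1.02 ± 0.16) and AGL12, a MADS factor of root development (-0.69 ± 0.24), were lower too. MYB68, a root MYB factor, had 73.5, 65.3 and 66.4 CPM in total and 75.5, 52.2 and 58.2 CPM in TRAP RNA, which overlap (-0.14 ± 0.18). In TPM every TRAP library of MYB68 under MgD was below every total library. GIK (-0.21 ± 0.24), AT1G68880 (-0.57 ± 0.33) and WRKY59 (-1.02 ± 0.67) did not pass, though GIK was called lower on log2(TPM + 1) (-0.67, limma adjusted p 0.0317).

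Among the 15 members that were grouped by name as other enzymes 12 were lower and 3 did not pass, with a median of -1.84. The patatin-like lipase PLP5 (-2.01 ± 0.30), NIC3 (-1.32 ± 0.27) and AT4G19760, a chitinase-type hydrolase (-3.21 ± 0.66), were lower, and CEP2, a cysteine proteinase, did not pass (-0.36 ± 0.46) but was called lower on log2(TPM + 1) (-1.38, limma adjusted p 0.0267). Of the 25 remaining members 21 were lower and 0 higher. Among them AT1G53635 had 17.5, 26.5 and 22.5 CPM in total and 1.24, 0.614 and 0.790 CPM in TRAP RNA, 25.1-fold lower, and its neighbour AT1G53640 was 8.18-fold lower. The PLAC8 proteins AT3G18450 (-4.38 ± 0.49) and AT1G49030 (-3.30 ± 0.29) were lower, as were the neighbours AT3G21351 (-2.18 ± 0.56) and AT3G21352 (-1.83 ± 0.61), the latter not called on log2(TPM + 1), with the recovered reads, or without total MgD replicate 1 or 2 or TRAP MgD replicate 2 or 3 (edgeR adjusted p 0.0567 to 0.0789). In contrast, the neighbours AT5G60520 (-1.11 ± 0.46) and AT5G60530 (-0.02 ± 0.52) did not pass, with an edgeR adjusted p of 0.058 for AT5G60520. That gene was called lower by DESeq2 (adjusted p 0.0272), on log2(TPM + 1) (-1.65, limma adjusted p 0.00527), with only the compared groups (edgeR adjusted p 0.00161), with all 24 libraries (0.0284), and without total CK replicate 1 or 2 or TRAP CK replicate 2 (0.0173 to 0.0489).

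The size of the difference was weakly related to gene length and level across the 104 members. Pearson's r was 0.241 with log2 exon length, 0.197 with log2 coding length and 0.107 with the log2 level in root total CK, with Spearman's rho of 0.266, 0.157 and 0.0643. The median difference was -1.83 in the 35 members with the shortest coding length, -1.45 in the 35 of middle length and -1.66 in the 34 longest.

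MgD was compared with CK to ask whether a day without magnesium changed these genes. No member was called in root TRAP RNA, in root total RNA or for the difference between these responses (edgeR, adjusted p below 0.05), and neither was any of the 20311 genes, 0% in each case. At an unadjusted p below 0.05 there were 6, 3 and 4 members, and 2284, 503 and 968 genes. Of 23952 genes tested, DESeq2 called 169 in TRAP RNA, 0.706%, among them 2 of the 104 members, PP2-A3 and AIR1. It called no member among 1 gene in total RNA and 2 genes for the difference. The total RNA comparison holds the libraries that chose the members. The median response of the members was -0.14 on the log2 scale in TRAP RNA and 0.03 in total RNA, against -0.01 over all genes in both.

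PP2-A3, a phloem-protein-like lectin, had 47.7, 44.2 and 16.3 CPM in TRAP RNA under CK and 18.4, 13.5 and 11.1 CPM under MgD. The groups overlap at 1 CK library, and the difference was -1.33 ± 0.34 (edgeR adjusted p 0.296, DESeq2 adjusted p 0.0275). AIR1 had 38.8, 44.3 and 9.60 CPM under CK and 10.8, 10.3 and 8.86 CPM under MgD, again with replicate 3 of CK inside the MgD range, and differed by -1.63 ± 0.49 (edgeR adjusted p 0.326, DESeq2 adjusted p 0.0417). AT3G13760, a C1 domain protein, had 24.5, 45.7 and 25.8 CPM under CK and 53.8, 47.1 and 43.2 CPM under MgD (0.59 ± 0.21, edgeR adjusted p 0.372). Over all genes, 7.13% had all 3 MgD libraries above the 3 CK libraries in TRAP RNA and 6.86% had them below. Among members there was 1 of each, XTH20 above (177, 237 and 170 against 161, 140 and 152 CPM) and CASP1 below (9.96, 11.5 and 11.8 against 15.6, 13.3 and 15.4 CPM).

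**Figure D5:**
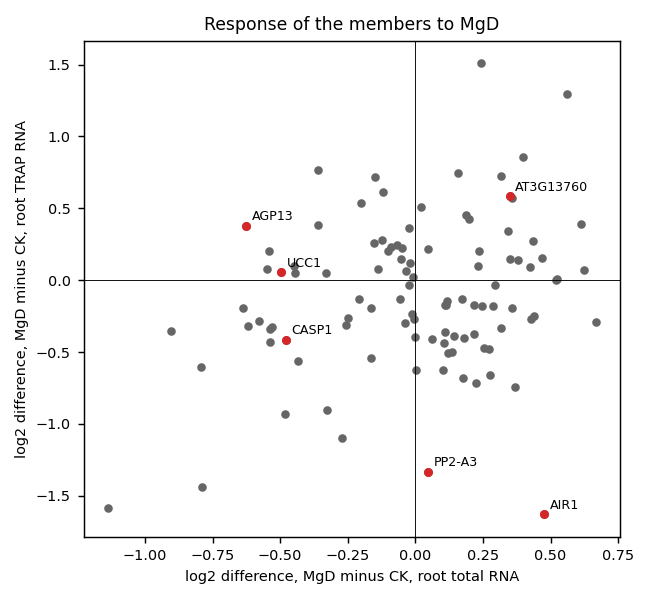
Response of the 104 members to MgD as log2 differences in root total RNA (horizontal) and root TRAP RNA (vertical), from counts, with the 6 members named for the smallest p-values in red. No point passed the edgeR test in either direction, and AIR1 and PP2-A3 lie lowest among the red points, at -1.63 and -1.33 in TRAP RNA.

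In root total RNA the smallest p-values belonged to CASP1 (-0.48 ± 0.19), UCC1 (-0.50 ± 0.20) and AGP13, an arabinogalactan protein (-0.62 ± 0.29), all with an edgeR adjusted p of 1.00. CASP1 had 134, 76.9 and 89.7 CPM under CK and 70.6, 79.4 and 65.4 CPM under MgD, which overlap. AGP13 had 35.1, 15.3 and 26.3 CPM under CK and 16.2, 14.8 and 18.8 CPM under MgD, but its TPM value in root total MgD replicate 3 was 217 against 47.4 and 50.5 in the others, and with limma on log2(TPM + 1) its difference changed sign. For the response of TRAP against total RNA, AIR1 (-2.10 ± 0.67), PP2-A3 (-1.38 ± 0.47) and AGP13 (1.00 ± 0.42) came first, with edgeR adjusted p of 0.934 each.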

How the data were processed

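The authors deposited whole-number read counts per gene and TPM values per gene for 24 libraries. Per the submitters' processing notes, FastQC, Trimmomatic, STAR 2.7.6a and Subread 2.0.0 were used; settings and genome build are not given in the sources used here. Another 8 samples labelled as removed were not analysed here. The members were picked on TPM, and the members, lists and role groups were chosen with earlier results of these data known. All 12 root libraries were fitted in one 4-group model with edgeR 4.0.16 in R 4.3.3 (filterByExpr, TMM, robust quasi-likelihood test, Benjamini-Hochberg threshold 0.05, no block). DESeq2 1.42.0 and limma 3.58.1 served as alternatives. The steps were tested on simulated data. In each library most counts from 1 to 20 were even, as when mates are counted singly, so counting error exceeds what a count implies. Named members are the 12 highest, up to 8 largest called rises and 8 falls without overlap, the 3 smallest p-values per MgD comparison, up to 3 per class or list, threshold genes and neighbours. A few others (AT1G68880, MYB68, WRKY9, AGL12, CLE2, CLE6, BIA1, PRR2, PPCK2, AT5G49770, AT1G49030, CLE4, CYP76C4, AT4G22810) were named after their values were seen, to fill out role groups. The values of 1 member that the rule names are not reported here. Symbols come from RefSeq TAIR10.1.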

Additional observations from a re-analysis of the deposited data

How the results depend on the processing

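The count of members lower in root TRAP RNA under MgD ranged from 64 to 78 over all alternatives run, against 23.3% to 47.3% of genes. With each root library left out in turn it ranged from 64 to 74, against 23.7% to 29.6% of genes. In those fits the median log2 difference of members was between -1.74 and -1.57, and 2 or 3 members were higher, against 20.4% to 26.0% of genes. The 2 limma fits on TPM called 1 member higher instead of 2, against 10.89% and 10.85% of genes. In DESeq2, 2 members were called for MgD in TRAP RNA, against 0.706% of genes, where edgeR called 0. Leaving out each library gave 0 in every MgD comparison. A replicate block, from the numbers in the titles, gave 78 members lower and 3 higher, against 30.76% and 27.25% of genes, and called 0 for MgD. It called AT1G77530 higher (1.25, edgeR adjusted p 0.00939) and AT3G29110 (-1.12, 0.00163) and AT5G60520 (-1.10, 0.0445) lower, which the fit without a block did not. The labels do not say what the numbers mark. Deviations correlated above 0.1 in 14 of 18 like-numbered pairs, in all 6 of number 1 (0.182 to 0.534), all 6 of number 3 (0.174 to 0.47) and 2 of 6 of number 2, so the pairing was not taken as given; each of the 12 root libraries correlated best with one of its own number, a hint of pairing from the data, not the design. A block by the original library numbers, added after seeing the data, gave 76 members lower and 3 higher, against 28.1% and 24.8% of genes. It also called AT1G77530 (1.34, edgeR adjusted p 0.0046) and AT3G29110 (-0.99, 0.00944). Requiring every library to pass both limits left 26 genes. The same limits on the MgD total RNA libraries chose 127 genes, 75 of them members. Of the alternative values for single named members, 1491 kept direction and call, 44 lost the call, 25 gained it and 21 changed sign without a call in either fit; the cause was not tested.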
